A study of Hordeum vulgare with 10 samples.

Results

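Proline and pyrroline-5-carboxylate metabolism of barley roots was followed through 4 transcripts, which were chosen by the words pyrroline-5-carboxylate, proline dehydrogenase or proline oxidase in their description and by an average level of 1 TPM or more across the 10 libraries. TPM is the share of a library's transcripts corrected for transcript length, so that levels of different transcripts can be set side by side. All 4 transcripts that carried these words passed the minimum, of 18330 that passed it in the whole table and 37962 listed. The lowest mean over all libraries, 7.00 TPM, was that of the 1-pyrroline-5-carboxylate dehydrogenase. Its solvent control mean, 0.871 TPM, lay below the limit, so it passed only through its treated libraries. No transcript with these words lay outside the limit. The 1-pyrroline-5-carboxylate dehydrogenase HORVU.MOREX.r3.5HG0517210.1 was named with its response to both treatments known, so its differences from the solvent control are a description and carry no test.

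All libraries were made from polyA RNA of roots of barley cv Golden Promise, cut into pieces from 7-d-old seedlings, left to recover overnight in MES buffer and collected 2 h post treatment (hpt). The treatments compared were a solvent control with methanol alone (n = 3), ergosterol, the main sterol of most fungi, at a final 250 nM (n = 3), and a crude lipid extract of *S. indica*, a beneficial fungus that colonizes roots, diluted 1 : 160 in the well (n = 4). Methanol was present at 1 : 40 in every group, and each replicate pooled the root pieces of 2 wells. No transgene or mutation is named for the plants, and detached root pieces stood in for the intact root.

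Proline is made and broken down through a shared intermediate, pyrroline-5-carboxylate (P5C). In synthesis, P5C is formed from glutamate and then reduced to proline by P5C reductase. In breakdown, which takes place in mitochondria, proline dehydrogenase oxidizes proline to P5C, and P5C dehydrogenase oxidizes P5C further to glutamate. Plants are known to accumulate proline under osmotic stress and to degrade it on recovery, and in *Arabidopsis* a shortage of P5C dehydrogenase lets P5C build up. The 4 transcripts thus covered the 2 steps of breakdown, with 1 transcript each, and the last step of synthesis, with 2.

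The libraries resembled each other closely, with pairwise Pearson correlations of 0.959 to 0.982 on the log2(TPM + 1) scale and 17960 to 18653 transcripts at 1 TPM or more. Of 36 transcripts described as Casparian strip, nicotianamine synthase or high-affinity nitrate transporter, which mark root tissue, 9 reached 1 TPM and 21 were at 0 in every library. Their summed level was 636 to 963 TPM in the solvent control, 792 to 835 TPM upon ergosterol and 739 to 900 TPM upon *S. indica* lipids. Of 13 transcripts of photosynthesis proteins, which mark shoots, 2 reached 1 TPM and 6 were at 0 everywhere, and their sum was 4.41 to 8.70, 3.73 to 5.40 and 3.39 to 5.92 TPM in the same order of groups. Read totals cannot be had from TPM, so the depth of each library is unknown and precision is judged from the spread between libraries alone.

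The largest log2FC of the 4 transcripts were seen at the second step of proline breakdown. The P5C dehydrogenase, HORVU.MOREX.r3.5HG0517210.1 on chromosome 5H, was at 0.469, 1.58 and 0.567 TPM in the solvent control libraries. Upon ergosterol it was at 4.93, 5.29 and 5.35 TPM. Upon *S. indica* lipids it was at 15.1, 16.7, 8.50 and 11.5 TPM. All 7 treated libraries lay above the highest solvent control library, and all 4 *S. indica* lipid libraries lay above all ergosterol libraries, so that no pair of groups overlapped.

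The solvent control mean was 0.871 ± 0.614 TPM (SD, n = 3), compared with 5.19 ± 0.226 TPM (SD, n = 3) in ergosterol-treated roots and 13.0 ± 3.69 TPM (SD, n = 4) in those given *S. indica* lipids. The ergosterol libraries differed little, with a coefficient of variation of 4.35%, against 70.4% in the solvent control and 28.5% upon *S. indica* lipids. In terms of mean TPM, the level upon ergosterol was 5.96-fold and that upon *S. indica* lipids 14.9-fold of the solvent control. The second solvent control library, the highest of its group, weighed on these ratios, which were 10.0-fold and 25-fold without it.

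On the log2(TPM + 1) scale, on which the fold change of a low transcript is understated, the dehydrogenase had a log2FC of 1.77 (SE 0.26, 95% interval 1.21 to 2.34) upon ergosterol. The log2FC upon *S. indica* lipids was 2.91 (SE 0.24, 95% interval 2.38 to 3.43). Ordered from the largest rise down, these differences ranked 42 and 5 among the 18330 transcripts. Both comparisons use the same solvent control libraries.

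**Figure D1:**
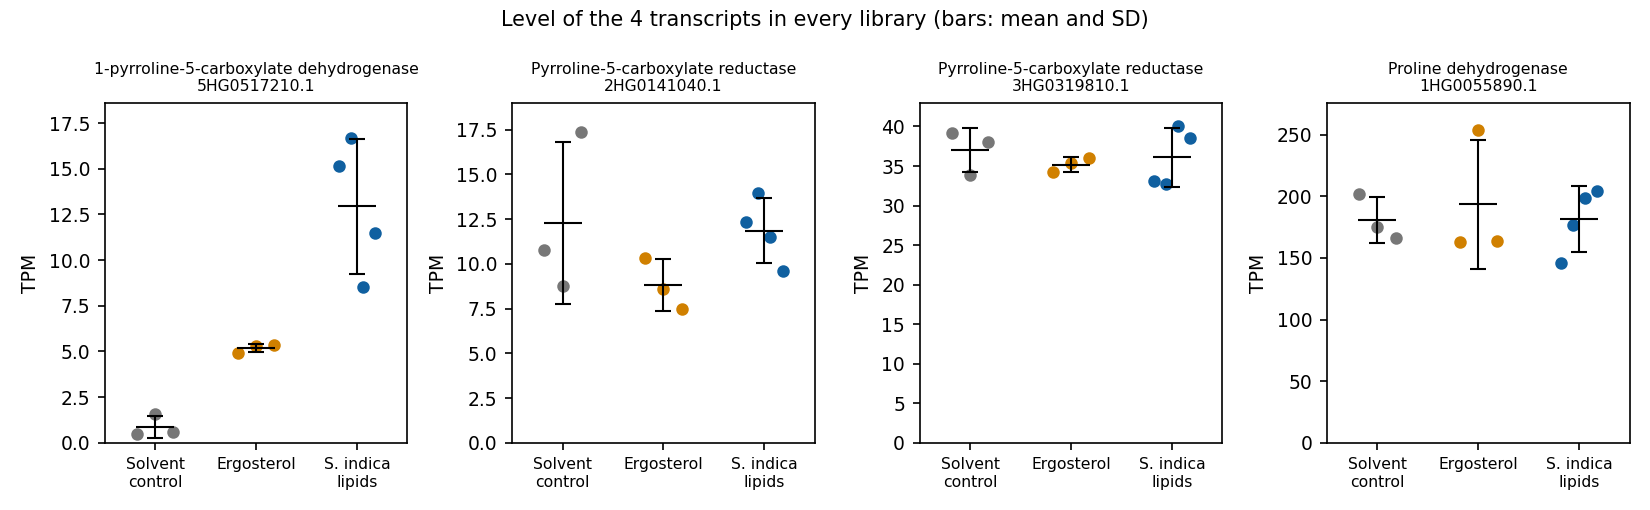
Level of each of the 4 transcripts in TPM (vertical axes, each starting at 0) in each library (3 of the solvent control, 3 of ergosterol, 4 of *S. indica* lipids). Points are libraries and bars are means with SD. The dehydrogenase, at the left, steps up from 0.871 to 5.19 to 13.0 TPM without overlap, whereas the points of the groups overlap in the other panels.

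In the direct comparison of both treatments, the difference itself did not use the solvent control. Its SE, interval and limma *p* did, because the spread was estimated from all 10 libraries. The dehydrogenase was lower upon ergosterol than upon *S. indica* lipids by a log2FC of −1.13 (SE 0.24, 95% interval −1.66 to −0.60), and the mean TPM upon *S. indica* lipids was 2.50-fold of that upon ergosterol. The ergosterol concentration of the diluted extract is not stated, so dose and composition of the treatments cannot be told apart. The difference in log2FC was not significant after adjustment over all transcripts (limma, unadjusted *p* = 0.000665, Benjamini-Hochberg adjusted *p* = 0.508). Over all alternatives of the processing the adjusted *p* lay between 0.242 and 0.995. An exact two-sided permutation test over the 7 libraries gave *p* = 0.0571, the smallest value that 3 against 4 libraries can give. The dehydrogenase was named with its response in these treated libraries known. These *p*-values are therefore a description, and no support is read from them. The direction held in every pair of an ergosterol and an *S. indica* lipid library, since the lowest *S. indica* lipid value, 8.50 TPM, exceeded the highest ergosterol value, 5.35 TPM.

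A transcript was called where limma's adjusted *p* was at most 0.05 and its log2FC at least 1 or at most −1. Of all tested transcripts, 1.23% were called upon ergosterol and 1.26% upon *S. indica* lipids. Of the 4 transcripts of proline metabolism, 1 was called in each of both comparisons, the dehydrogenase, for which nothing is read from this count because it was named for its response. In the direct comparison, 0% were called (0 of 18330 by limma, with 975 at an unadjusted *p* under 0.05), and none of the 4 was among them. Separate libraries alone were common, as 26.1% of all transcripts did not overlap between ergosterol and solvent control, 13.2% between *S. indica* lipids and solvent control, and 5.8% between both treatments. The full order of the dehydrogenase, with every *S. indica* lipid library above every ergosterol library and these above every solvent control library, was met by 45 transcripts or 0.245%. Among these 45, a set formed on its own order, the dehydrogenase had the largest difference in log2(TPM + 1) between *S. indica* lipids and ergosterol. This rank is a description, and nothing is read from it.

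At the first step of breakdown the groups overlapped. Proline dehydrogenase, HORVU.MOREX.r3.1HG0055890.1 on chromosome 1H, was the most abundant of the 4 transcripts in every library. It was at 202, 175 and 166 TPM in the solvent control. Upon ergosterol it was at 163, 254 and 164 TPM, the second library lying above all others of the experiment. Upon *S. indica* lipids it was at 146, 177, 199 and 204 TPM. The groups overlapped in every pairing, with means of 181 ± 18.6 TPM (SD, n = 3), 194 ± 52.4 TPM (SD, n = 3) and 181 ± 26.6 TPM (SD, n = 4).

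No significant difference was found for proline dehydrogenase. Its log2FC was 0.07 upon ergosterol (95% interval −0.33 to 0.47, limma, adjusted *p* = 0.873) and −0.0037 upon *S. indica* lipids (95% interval −0.38 to 0.37, limma, adjusted *p* = 0.996). The sign of the first value turned in the fit without the second ergosterol library, and that of the second under 4 other alternatives. Between the treatments the log2FC was 0.07 (95% interval −0.30 to 0.45, limma, adjusted *p* = 0.998). In ratios of TPM + 1, the intervals against the solvent control ran from 0.797 to 1.38 upon ergosterol and from 0.770 to 1.29 upon *S. indica* lipids. On the same scale, those of the P5C dehydrogenase of the next step, given as a description, ran from 2.31 to 5.06 and from 5.19 to 10.8.

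The last step of synthesis was represented by a pair of P5C reductases, the enzyme that turns P5C into proline. HORVU.MOREX.r3.3HG0319810.1 on chromosome 3H was the more abundant, at 39.2, 33.9 and 38.0 TPM in the solvent control. Upon ergosterol its libraries were at 34.2, 35.4 and 36.0 TPM, and upon *S. indica* lipids at 33.1, 32.7, 40.1 and 38.5 TPM. It had the smallest SE of the 4 transcripts in each comparison (0.10 upon ergosterol), the groups overlapped throughout, and the means were 37.0 ± 2.80 TPM (SD, n = 3), 35.2 ± 0.897 TPM (SD, n = 3) and 36.1 ± 3.76 TPM (SD, n = 4). The log2FC was −0.07 upon ergosterol (95% interval −0.30 to 0.16, limma, adjusted *p* = 0.764) and −0.04 upon *S. indica* lipids (95% interval −0.25 to 0.18, limma, adjusted *p* = 0.897). The value between the treatments was −0.03 (95% interval −0.25 to 0.18, limma, adjusted *p* = 0.998). Under other settings these values lay on either side of 0.

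The other reductase, HORVU.MOREX.r3.2HG0141040.1 on chromosome 2H, was at 10.8, 8.75 and 17.4 TPM in the solvent control. Upon ergosterol it was at 10.3, 8.61 and 7.45 TPM, and upon *S. indica* lipids at 12.4, 14.0, 11.5 and 9.57 TPM. The third solvent control library was the highest of all, 0 of 7 treated libraries exceeded it, and the groups overlapped in every pairing. Means were 12.3 ± 4.52 TPM (SD, n = 3), 8.80 ± 1.46 TPM (SD, n = 3) and 11.9 ± 1.83 TPM (SD, n = 4). The log2FC of −0.40 upon ergosterol was not significant (SE 0.22, 95% interval −0.89 to 0.09, limma, adjusted *p* = 0.346), nor was that of −0.0077 upon *S. indica* lipids (95% interval −0.46 to 0.45, limma, adjusted *p* = 0.992), whose sign changed with the processing. Between the treatments the log2FC was −0.39 (95% interval −0.85 to 0.06, limma, adjusted *p* = 0.953). For the reductases and proline dehydrogenase, a *p* above the threshold does not show that the groups were alike, only that a difference was not resolved with 3 to 4 libraries.

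**Figure D2:**
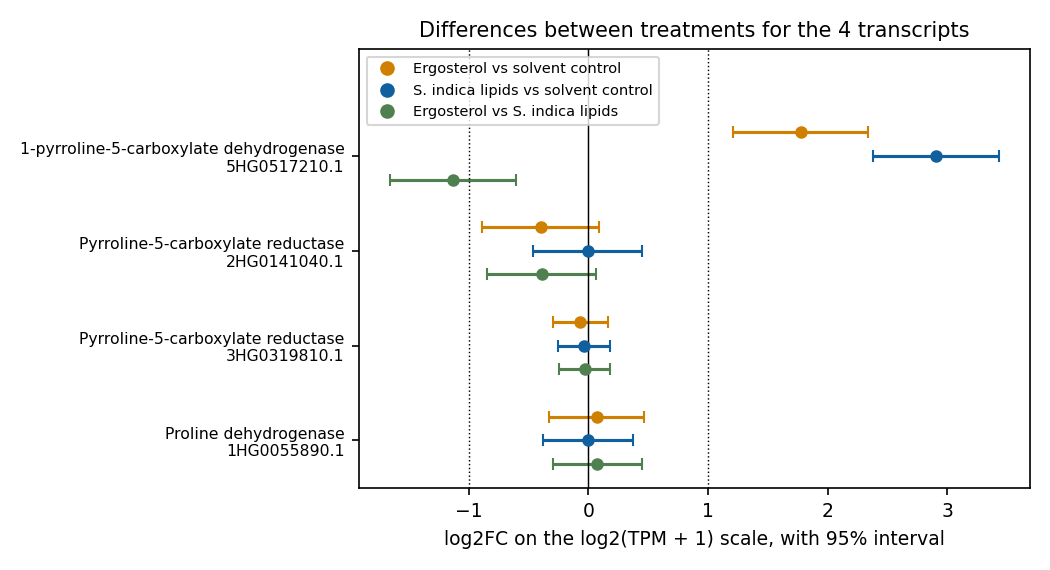
Difference between groups for each of the 4 transcripts, as log2FC on the log2(TPM + 1) scale with its 95% interval from limma (horizontal axis). Dotted lines mark the limits of −1 and 1 and the solid line marks 0. The dehydrogenase lies at 1.77 and 2.91 against the solvent control and at −1.13 between the treatments, and the intervals of the other 3 transcripts cover 0 in all comparisons.

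Set side by side, the 4 transcripts kept a partly fixed order. Proline dehydrogenase was above the 3H reductase in every library, and the 3H reductase was above the 2H reductase and the P5C dehydrogenase in every library. Only the place of the P5C dehydrogenase moved. It was the lowest of the 4 in all solvent control and ergosterol libraries, whereas upon *S. indica* lipids its range of 8.50 to 16.7 TPM overlapped that of the 2H reductase, 9.57 to 14.0 TPM.

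The balance of the steps in each library was described by ratios of TPM, which carry the dehydrogenase's own response and are given without a test. Proline dehydrogenase exceeded P5C dehydrogenase by a ratio of 431, 111 and 293 in the solvent control libraries. The ratio was 33.0, 48.1 and 30.7 upon ergosterol. It was 9.61, 10.6, 23.4 and 17.8 upon *S. indica* lipids. Mean ratios were 278 ± 160 (SD, n = 3), 37.3 ± 9.42 (SD, n = 3) and 15.4 ± 6.49 (SD, n = 4), and the groups did not overlap.

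Relative to synthesis, the P5C dehydrogenase amounted to 0.939 to 3.70% of the summed level of both reductases in the solvent control. This share was 11.1 to 12.3% in ergosterol-treated roots and reached 16.5 to 35.8% with *S. indica* lipids. The summed reductases themselves averaged 49.3 ± 6.42 TPM (SD, n = 3) under solvent, 44.0 ± 0.570 TPM (SD, n = 3) under ergosterol and 48.0 ± 2.66 TPM (SD, n = 4) under *S. indica* lipids. The ratio of proline dehydrogenase to the summed reductases, which leaves the P5C dehydrogenase out, overlapped between all groups, at 3.0 to 4.10 in the solvent control, 3.66 to 5.78 under ergosterol and 3.20 to 4.25 under *S. indica* lipids.

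**Figure D3:**
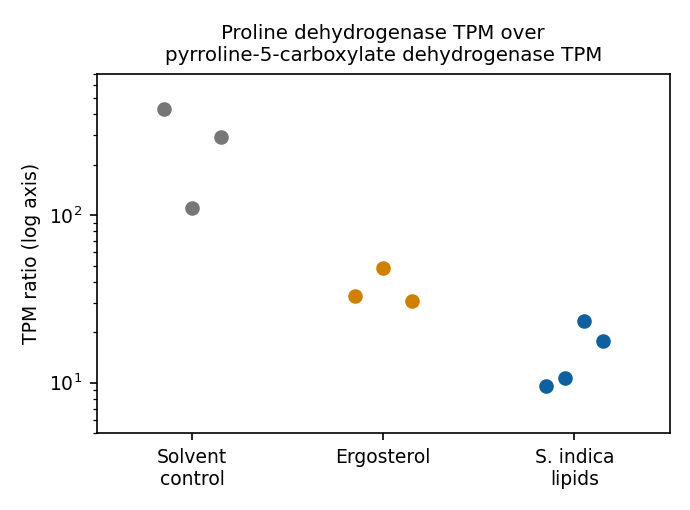
TPM of proline dehydrogenase divided by TPM of P5C dehydrogenase in each library (vertical log axis), with 1 point per library. The ratio is 111 to 431 in the 3 solvent control libraries, 30.7 to 48.1 in the 3 ergosterol libraries and 9.61 to 23.4 in the 4 with *S. indica* lipids.

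The other transcripts of proline metabolism had correlations with the dehydrogenase near or below 0. Over the 10 libraries, Pearson's *r* of log2(TPM + 1) with the dehydrogenase was −0.07 for the 2H reductase, −0.38 for the 3H reductase and −0.08 for proline dehydrogenase. As a description, the 5 transcripts of the whole table most like it were a basic helix-loop-helix transcription factor (HORVU.MOREX.r3.6HG0592420.1, *r* = 0.964), a pyruvate kinase (HORVU.MOREX.r3.5HG0459370.1, *r* = 0.959), a malate synthase G (HORVU.MOREX.r3.2HG0178090.1, *r* = 0.958), a protein kinase (HORVU.MOREX.r3.7HG0649370.2, *r* = 0.958) and a protein with an EEIG1/EHBP1 N-terminal domain (HORVU.MOREX.r3.5HG0425990.1, *r* = 0.954). All 5 shared the stepwise order of the groups without overlap, which their choice by likeness to a transcript with this order favours. The pyruvate kinase, for example, which forms pyruvate at the end of glycolysis, was at 54.0 ± 8.34, 71.0 ± 6.59 and 85.6 ± 5.65 TPM (SD, n = 3, 3 and 4). With the group means removed, *r* stayed at 0.74 for the pyruvate kinase and 0.50 for the malate synthase G and lay at 0.14 to 0.24 for the other 3, so the likeness rested mostly on the group means.

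The formation of P5C from glutamate, the step before the reductases, is carried by glutamate 5-kinase and gamma-glutamyl phosphate reductase, which plants join in 1 enzyme, P5C synthetase. Of 6 transcripts with these descriptions, 4 were tested and 0 were called in any comparison. The most abundant, the gamma-glutamyl phosphate reductase HORVU.MOREX.r3.1HG0073870.1, was at 104 to 116 TPM in the solvent control, 82.7 to 90.4 TPM upon ergosterol and 85.5 to 108 TPM upon *S. indica* lipids. Its ergosterol libraries all lay below the solvent control libraries, and its log2FC of −0.34 upon ergosterol (limma, adjusted *p* = 0.108) and −0.23 upon *S. indica* lipids (limma, adjusted *p* = 0.278) did not reach significance. The other 3 were at or below 14.8 TPM in the mean of every group, with log2FC from −0.21 to 0.20 upon ergosterol, and from −0.26 to −0.02 when *S. indica* lipids were given. This list was put together after the table had been seen, because the words of the rule do not cover P5C synthetase.

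Neighbouring pathways, which supply or use glutamate, ornithine, arginine and proline, were set beside the 4 transcripts. Of 146 transcripts in 7 lists, 98 were tested, and 3 rose and 0 fell upon each treatment, a share of 3.06% against 1.23% and 1.26% of all transcripts. The median log2FC over the 98 was −0.05 upon ergosterol and −0.07 upon *S. indica* lipids, near the medians of −0.08 and −0.04 over all transcripts. In the direct comparison 0 of 98 were called. By adjusted *p* alone, with no limit on log2FC, 4 rose and 0 fell upon ergosterol, and 5 rose and 1 fell upon *S. indica* lipids. Among all transcripts by this criterion, 2.85% rose and 0.458% fell upon ergosterol, and 3.29% rose and 0.584% fell upon *S. indica* lipids. The 1 that fell was an S-adenosylmethionine decarboxylase of polyamine synthesis (HORVU.MOREX.r3.5HG0482470.1, named after its value was seen), at 502 ± 15.9 TPM (SD, n = 3) in the solvent control and 315 ± 44.4 TPM (SD, n = 4) with *S. indica* lipids (log2FC −0.68, SE 0.12, limma, adjusted *p* = 0.00751). No call fell on glutamate and glutamine metabolism (12 tested), arginase (1 tested) or the glutamate decarboxylases of the GABA shunt (5 tested). None fell either on the other aldehyde dehydrogenases (22 tested), the enzyme superfamily to which P5C dehydrogenase belongs. The log2FC of these 22 still ran from −1.26 to 1.24 upon ergosterol and from −0.67 to 1.25 upon *S. indica* lipids. Those of the glutamate decarboxylases ran from −0.05 to 0.82 and from −0.15 to 1.02.

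Among the 16 transcripts of polyamine synthesis and oxidation, the arginine decarboxylase HORVU.MOREX.r3.7HG0644220.1, which starts putrescine synthesis from arginine, rose upon both treatments. It was at 56.1 to 77.1 TPM in the solvent control, 154 to 184 TPM upon ergosterol and 132 to 199 TPM upon *S. indica* lipids. The log2FC was 1.24 (SE 0.16, limma, adjusted *p* = 0.00189) and 1.21 (SE 0.15, limma, adjusted *p* = 0.00122). Between the treatments its log2FC was 0.03 (SE 0.15, limma, adjusted *p* = 0.998), beside −1.13 for the P5C dehydrogenase; the difference between these values was not tested.

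In the list of proline transport and use, the prolyl 4-hydroxylase alpha subunit HORVU.MOREX.r3.5HG0521560.2, an enzyme that hydroxylates proline within proteins, rose from 21.4 to 35.1 TPM in the solvent control to 49.3 to 58.0 TPM upon ergosterol and 51.4 to 65.8 TPM upon *S. indica* lipids. Its log2FC was 1.00 (SE 0.17, limma, adjusted *p* = 0.0079) and 1.11 (SE 0.16, limma, adjusted *p* = 0.00246). The first lies on the limit of 1 and passed below it under 5 alternatives, among them TPM summed per locus (0.97). The other transcript of this locus, HORVU.MOREX.r3.5HG0521560.1, was not called. Its log2FC was 0.67 upon ergosterol (limma, adjusted *p* = 0.256) and 0.46 upon *S. indica* lipids (limma, adjusted *p* = 0.49). The acetylglutamate kinase-like transcript HORVU.MOREX.r3.6HG0600870.1 of the arginine list, whose name is that of an early enzyme of ornithine and arginine synthesis, was at 5.28 to 10.9, 15.5 to 18.3 and 12.4 to 19.8 TPM. Its log2FC of 1.05 (limma, adjusted *p* = 0.0301) and 1.03 (limma, adjusted *p* = 0.0198) was called, and the call was lost under 7 and 8 of 19 alternatives.

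The most abundant transcript of each list, by contrast, was not called in any comparison. Arginase (HORVU.MOREX.r3.2HG0100060.1), which releases ornithine, a further source of P5C, was at 379 ± 71.2 TPM in the solvent control, 312 ± 28.6 TPM upon ergosterol and 335 ± 4.24 TPM upon *S. indica* lipids (SD, n = 3, 3 and 4). Glutamate dehydrogenase (HORVU.MOREX.r3.2HG0185380.1), which deaminates glutamate, the product of proline breakdown, was at 667 ± 31.2, 689 ± 64.2 and 734 ± 60.6 TPM in the same order. The aldehyde dehydrogenase HORVU.MOREX.r3.5HG0480430.1 was at 673 ± 119, 568 ± 58.8 and 599 ± 59.6 TPM, with log2FC of −0.23 and −0.16 (limma, adjusted *p* = 0.373 and 0.614). The leading transcripts of argininosuccinate synthase, glutamate decarboxylase, S-adenosylmethionine decarboxylase and proline--tRNA ligase had log2FC between −0.25 and 0.18 against the solvent control.

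**Figure D4:**
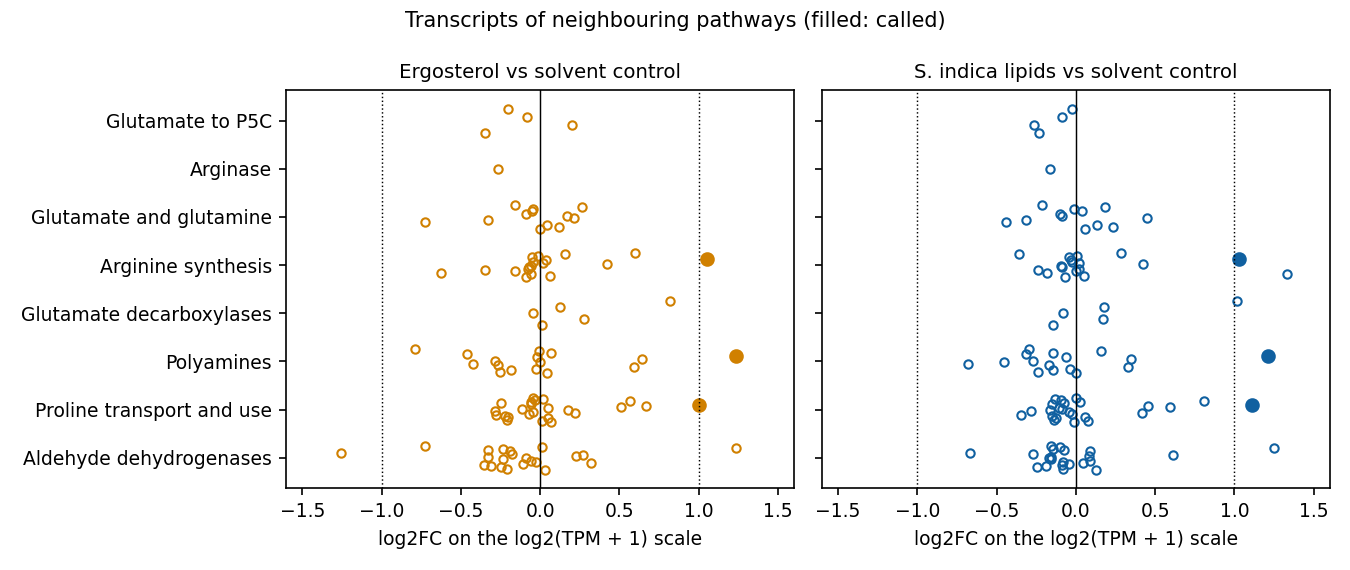
log2FC on the log2(TPM + 1) scale (horizontal axes) of every tested transcript of the neighbouring pathways, upon ergosterol (left) and upon *S. indica* lipids (right), with 1 point per transcript and filled points for called transcripts. Vertical spread within a row has no meaning and dotted lines mark −1 and 1. In each panel 3 transcripts are filled, all at log2FC of 1.00 to 1.24, below the 1.77 and 2.91 of the P5C dehydrogenase.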

How the data were processed

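Per the labels and the paper's methods, the authors trimmed reads with Trimmomatic 0.39 and estimated transcript abundance with kallisto 0.46.1 against the MorexV3 transcripts. The deposited table holds 1 TPM column per library, used here, together with the authors' mean TPM per treatment, log2 fold changes and sleuth q-values, which were not used. The TPM columns are entered as a score, because 5420 repeated lines make the deposited columns exceed the sum of 1000000 that TPM have. Each transcript was kept once, after which each library has that sum.

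The 18330 transcripts averaging 1 TPM or more were fitted as log2(TPM + 1) in R 4.3.3 by limma 3.58.1, using all 10 libraries, a mean for each group, a variance trend, and Benjamini-Hochberg adjustment per comparison. Exact permutation tests and tables used Python 3.11.15, numpy 2.4.6, pandas 2.3.3 and scipy 1.17.1, and plots matplotlib 3.10.9. The fit was tested on simulated data.

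The transcripts and lists were chosen with earlier results of these data known. Named were all transcripts of the rule, the called (at most 5) and the most abundant transcript of each list, and the 5 transcripts with the highest Pearson's *r* with the P5C dehydrogenase. The list of glutamate 5-kinase and gamma-glutamyl phosphate reductase was chosen after seeing the data. The words glutamate synthase also matched 3 folylpolyglutamate synthases, which were left out.

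Depth is unknown, since TPM keep no read totals. The labels do not say whether replicates came from separate plantings, so *p*-values measure only the spread between these samples. Alternatives were pseudocounts of 0.1 and 0.5, no minimum and a minimum of 5 TPM, median-ratio scaling, fits of only the 2 groups compared, no variance trend, TPM summed per locus, a block for the replicate number, the adjusted *p* without a limit on log2FC, and each library left out in turn. Identifiers were not linked to the gene table at hand, so that chromosomes are those in the identifiers, and positions and sequences are not given.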

Additional observations from a re-analysis of the deposited data

How the results depend on the processing

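Of the 4 transcripts of proline metabolism, 1 was called upon each treatment and 0 between the treatments under all 20 alternatives. The 1 called was the dehydrogenase, and nothing is read from its calls because it was named for its response. The dehydrogenase's log2FC was 2.62 (ergosterol) and 3.88 (*S. indica* lipids) with a pseudocount of 0.1, 2.14 and 3.34 with 0.5, and 1.62 to 2.03 and 2.76 to 3.16 with each library left out in turn. Left-out libraries gave 1 to 3 called related transcripts upon ergosterol and 1 to 4 upon *S. indica* lipids, with 1 for the former without solvent control library 1 or 3 or ergosterol library 3, and 1 for the latter without solvent control library 1. Without a limit on log2FC, 6 passed upon *S. indica* lipids. Signs of values near 0 turned. With median-ratio scaling, the log2FC upon *S. indica* lipids was 0.019 for the 2H reductase and 0.027 for proline dehydrogenase, and the 3H reductase was at 0.00064 upon ergosterol and 0.0087 between treatments. Leaving out libraries upon *S. indica* lipids gave −0.21 to 0.25 for the 2H reductase, −0.099 to 0.0065 for the 3H reductase and −0.064 to 0.097 for proline dehydrogenase. It gave −0.076 to 0.019 for the 3H reductase between treatments, and for proline dehydrogenase −0.14 to 0.18 upon ergosterol and −0.14 to 0.18 between treatments.

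Whether the replicate numbers pair the libraries is not known. Deviations from the group means correlated at −0.19 to 0.20 over 9 same-numbered pairs, of which 2 exceeded 0.1. Over 24 different-numbered pairs they correlated at −0.24 to 0.29, and 7 exceeded 0.1. With the number as a replicate block, the dehydrogenase's log2FC was 1.77 and 2.95, and −1.17 between treatments (limma, adjusted *p* = 0.242), that of the 2H reductase upon *S. indica* lipids 0.083, and that of the 3H reductase between treatments 0.00059. Only *S. indica* lipids have a replicate number 4, so the block takes that library out of these differences. The fit without that library gave the same log2FC values, so these shifts say nothing about pairing.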

Other observations

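Among transcripts whose locus numbers on chromosome 5H lie within 50 of the dehydrogenase's (9 listed, 6 tested, itself included), chosen after their values were seen, a VQ motif protein (HORVU.MOREX.r3.5HG0517230.1) was at 7.90, 31.7 and 41.3 TPM as means of the solvent control, of ergosterol and of *S. indica* lipids. Its log2FC was 1.88 upon ergosterol (SE 0.19, limma, adjusted *p* = 0.000407) and 2.24 upon *S. indica* lipids (SE 0.18, limma, adjusted *p* = 0.000101). An alpha/beta-hydrolase (HORVU.MOREX.r3.5HG0517250.1) was at 3.83, 10.0 and 5.25 TPM, with a log2FC of 1.19 upon ergosterol (SE 0.16, limma, adjusted *p* = 0.00271) and 0.36 upon *S. indica* lipids (SE 0.15, limma, adjusted *p* = 0.292). The other 3 tested neighbours, a fasciclin-like arabinogalactan protein, a myosin-binding protein and a glutamate carboxypeptidase, were not called in either comparison. Locus numbers give an order along the chromosome and no distance.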
